A study of Drosophila melanogaster with 27 samples.

Results

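Drosophila melanogaster tumours with a hairpin against CG6272 were compared with the same tumours without it, by RNA sequencing of larval imaginal discs, the pouches of epithelium from which eyes, antennae and legs of the fly develop. The comparison holds 8 of the 27 libraries of the series, chosen by genotype and disc from the library names. They were 4 of CG6272 knockdown tumours and 4 of tumours, with 2 eye-antennal and 2 leg libraries in each. All genes of the count table were used, and disc was a term of the model. Both genotypes shared a tumour background of UAS-scrib-RNAi, UAS-Ras[v12]/+ with hh-Gal4 and UAS-GFP. On this background the CG6272 knockdown carried UAS-CG6272-TRiP[HMS00057]-RNAi, a single hairpin line, and was dissected on day 8. The tumours carried UAS-luci-RNAi, against luciferase, and were dissected on day 9 (replicate 1) and day 11 (replicate 2). The hairpin against scrib, the activated Ras, GFP and the tested hairpin were all driven by hh-Gal4, that is, in posterior cells, so each library also held anterior cells outside the driver. For context, 11 eye-antennal and leg libraries of the same tumour with hairpins titled Stat92E (TRiP[HMS00035]), kay (TRiP[HMS00254]), sd (TRiP[JF02514]) or tai (TRiP[GL00514]) are given, 9 of them with a single day, 8 or 10, and 2 sd libraries with a pair of days. Last come 4 control libraries of day 5 with hh-Gal4, UAS-GFP and UAS-luc-RNAi and without the tumour transgenes. For sd the title was followed where the genotype field of the eye-antennal samples gave kay. All larvae were wandering larvae of the third instar, each library pooled discs of many larvae, and replicates were independent dissections. Eye-antennal and leg libraries of 1 dissection may come from the same larvae. Knockdown and tumour libraries differed in day as well as in hairpin, and genotype and day cannot be told apart. They also differed in the form of file name, which the CG6272, Stat92E and kay libraries share and all others lack. What lies behind that form cannot be told apart from genotype in any result relative to tumours.

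CG6272 is Irbp18, which encodes a basic leucine zipper (bZIP) protein of the C/EBP family. It was described as a protein that binds the inverted repeats of the P element, as does Irbp, the Drosophila Ku70, and it dimerises with the bZIP factor Xrp1. In Drosophila, Xrp1 is induced by p53 after DNA damage and by loss of ribosomal protein genes, and with Irbp18 it acts in the removal of such cells from discs. Loss of scrib disrupts the apical-basal polarity of disc cells, and with activated Ras it gives overgrown discs with active JNK and JAK/STAT signalling and delayed development.

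The CG6272 knockdown libraries held 14.1 to 15.2 M reads in genes, the tumour libraries 11.7 to 14.1 M. Table entries for reads with several alignments were 26.1% to 33.9% of all entries in CG6272 knockdown, 43.0% to 61.5% in the other hairpin tumours, 54.4% to 75.0% in tumours and 16.2% to 22.9% in controls. They are not part of library sizes, and their part in the results was not tested. Replicate pairs of the 8 libraries correlated at 0.956 to 0.986 across genes in log2 CPM, and none was identical. Midgut genes were high in both leg libraries of the knockdown and in eye-antennal replicate 2 of the tumour. The sum of 15 such genes, listed after their values were seen, was 9.94, 79.4, 1335 and 8229 CPM in the knockdown, against 42.7, 6889, 4.50 and 3.49 CPM in tumours. Levels below are CPM, the reads of a gene scaled to a common library total, with TMM scaling. Where 4 values stand for a genotype, they are eye-antennal replicates 1 and 2, then leg replicates 1 and 2. Log2 differences are CG6272 knockdown minus tumour (or minus the other hairpin tumours, where named), averaged over both discs, with standard error. Adjusted p-values are from edgeR's quasi-likelihood test with Benjamini-Hochberg adjustment over 9814 genes.

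The targeted gene was measured first. Irbp18 (FBgn0036126) stood at 12.04, 11.8, 8.70 and 10.7 CPM in CG6272 knockdown libraries, against 82.00, 51.6, 81.5 and 46.5 CPM in tumour libraries. The genotypes did not overlap, and the knockdown was also below the controls, at 13.3 to 16.4 CPM. The other hairpin tumours lay between knockdown and tumours, at 26.9 to 42.9 CPM. Irbp18 fell by 2.60 ± 0.23 on the log2 scale relative to tumours (adjusted p = 4.32e-06), and by 1.71 ± 0.20 relative to the other hairpin tumours (adjusted p = 0.000192). In a whole disc, fewer cells of a kind and less RNA per cell cannot be told apart, here and in all later results.

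Ras85D, whose reads can include those of the activated Ras transgene, had 347, 393, 443 and 441 CPM in CG6272 knockdown, against 1001, 657, 1133 and 680.1 CPM in tumours. The highest knockdown library was below the lowest tumour library, and the controls had 265 to 314 CPM. Ras85D fell by 1.10 ± 0.21 (adjusted p = 0.00273). With day 11 tumours alone as reference the difference was -0.72 (adjusted p = 0.0671), and against the other hairpin tumours, at 407 to 643 CPM, it was -0.33 ± 0.18 (adjusted p = 0.252). scrib, the target of the shared hairpin, had 260.4 to 377 CPM in CG6272 knockdown and 226 to 270.4 CPM in tumours, a difference of 0.26 ± 0.09 (adjusted p = 0.0659). Of the other hairpins' targets, Stat92E differed by 0.15 ± 0.06, sd by 0.14 ± 0.12 and tai by 0.01 ± 0.11 (adjusted p = 0.125, 0.475 and 0.974); tai turned sign with the reference chosen.

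Of 9 genes of Hedgehog signalling and compartments 3 fell (hh, en and inv) and 2 rose (ci and rdx), with a median of -0.02, and 1 rose in limma-voom with the dissection as a block, or without replicate 1 of any disc of either genotype. hh, the gene of the Hedgehog ligand, whose enhancer drives Gal4 here, had 69.2, 68.3, 35.1 and 30.8 CPM in CG6272 knockdown, against 141, 131, 76.1 and 57.5 CPM in tumours. Within each disc both knockdown libraries were below both tumour libraries, and hh fell by 1.00 ± 0.11 (adjusted p = 2.72e-05). It fell against the other hairpin tumours too (-0.66 ± 0.10, adjusted p = 0.000838). The posterior selector genes en (-0.79 ± 0.18, adjusted p = 0.00963) and inv (-0.85 ± 0.13, adjusted p = 0.000505) also fell. The anterior gene ci, which encodes the transcription factor of Hedgehog signalling, had 707, 514, 443 and 454 CPM in CG6272 knockdown, against 263, 278, 204 and 244 CPM in tumours. Every knockdown library exceeded every tumour library, and ci rose by 1.09 ± 0.10 (adjusted p = 5.29e-06), while controls averaged 665 CPM. Against the other hairpin tumours en differed by -0.12 ± 0.15, inv by -0.17 ± 0.11 and ci by -0.07 ± 0.08, the sign of ci being turned (adjusted p = 0.669, 0.342 and 0.663).

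**Figure D1:**
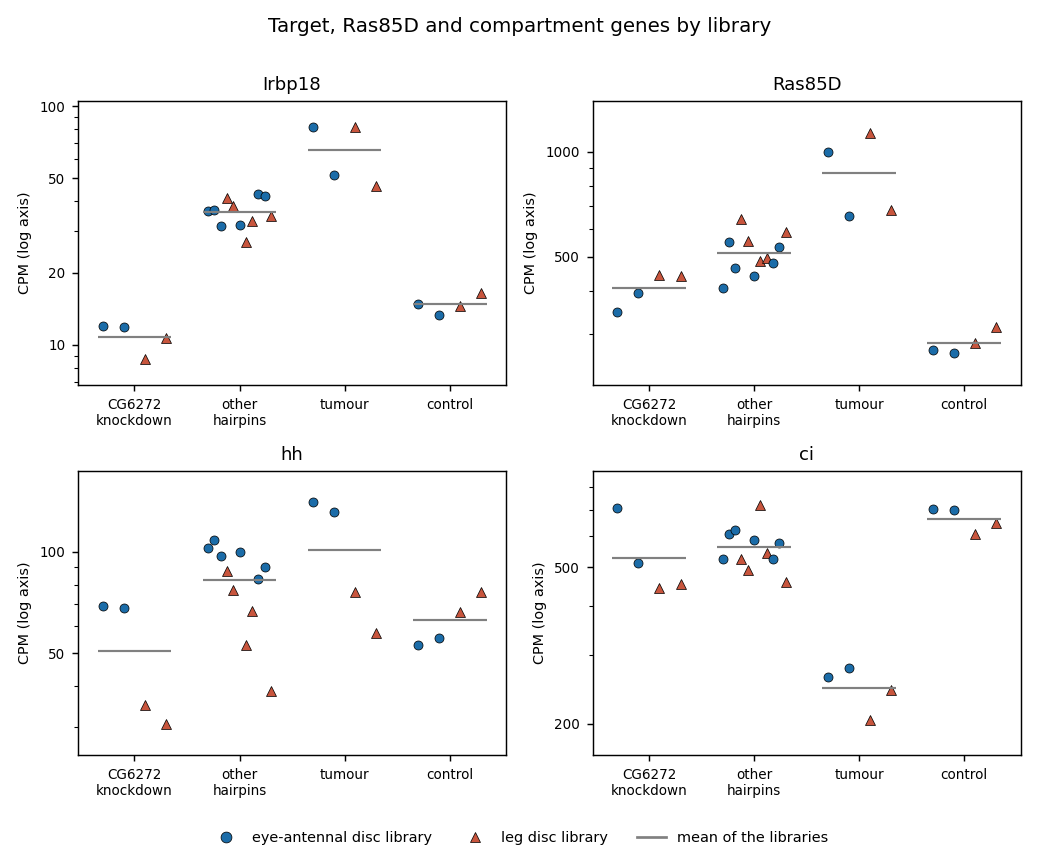
Levels of Irbp18, Ras85D, hh and ci in CPM on log axes, with 1 point for each library and a grey line at the mean of the group. CG6272 knockdown libraries lie below tumour libraries of the same disc in Irbp18, Ras85D and hh and above them in ci.

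Over all genes, more fell than rose. Of 9814 genes tested, 875 were lower (8.92%) and 523 were higher (5.33%) in CG6272 knockdown than in tumours at an adjusted p of 0.05, of which 305 and 172 changed at least 2-fold. The median difference over all genes was 0.01. The 1398 calls became 740 without leg replicate 1 of the tumour, 793 without its eye-antennal replicate 1, 870 without leg replicate 1 of the knockdown and 896 without its eye-antennal replicate 1. In all 8 fits that each left out 1 library, 442 falls (50.5%) and 171 rises (32.7%) passed the test. With an estimated correlation between discs of the same dissection (limma-voom, 0.442) 721 genes were called; calls lost in that fit, named the dissection block below, are given with its adjusted p. List counts below from the fit of all libraries are to be read against 8.92% lower and 5.33% higher. In the dissection block 528 of 9814 genes were lower and 193 higher. Fits without 1 library have their own shares over all genes. A list count that moves in the dissection block or in those fits is therefore not read as particular to the list.

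**Figure D2:**
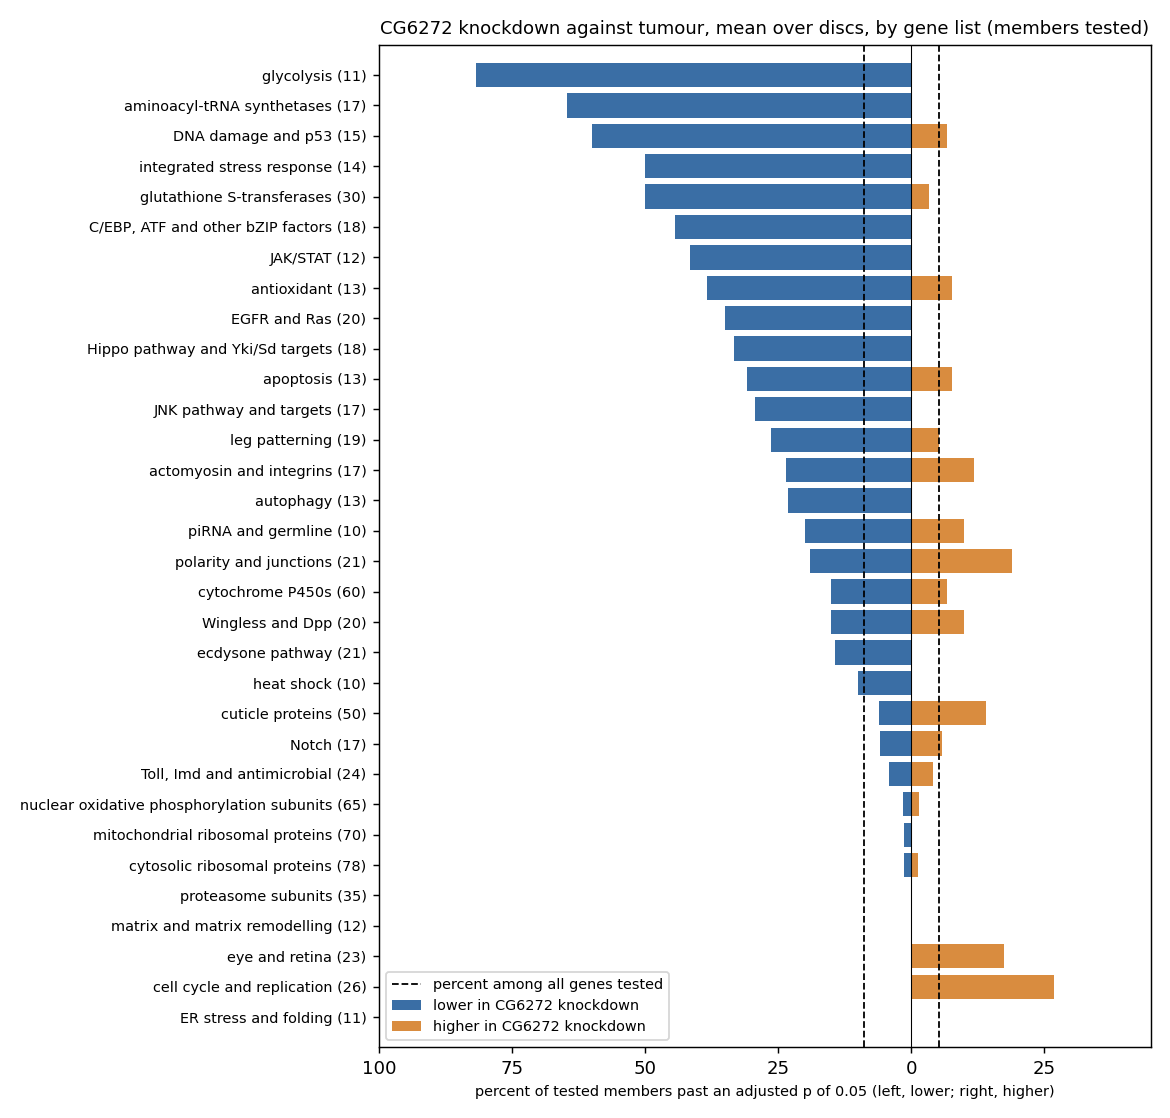
Percent of the tested members of each gene list that were lower (left, blue) or higher (right, orange) in CG6272 knockdown than in tumours at an adjusted p of 0.05, for lists with at least 10 tested members. Dashed lines mark 8.92% lower and 5.33% higher among all 9814 genes, and falls reach 9 of 11 genes in glycolysis, 11 of 17 in aminoacyl-tRNA synthetases and 9 of 15 in DNA damage and p53.

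The bZIP partners and relatives of Irbp18 were lower in part. Of 18 bZIP genes 8 fell, Irbp18 itself included, and none rose, with a median of -0.40. Xrp1, the dimerisation partner, had 987, 959, 809 and 875 CPM in CG6272 knockdown, against 1641, 1501, 1768 and 1279 CPM in tumours. All 4 knockdown libraries were below all 4 tumour libraries, and Xrp1 fell by 0.77 ± 0.14 (adjusted p = 0.00238). Against the other hairpin tumours, at 860.4 to 1309.7 CPM, its difference was -0.23 ± 0.12 (adjusted p = 0.256). crc, the Drosophila ATF4, fell by 0.44 ± 0.09 (adjusted p = 0.0039). kay, the Drosophila Fos, fell by 1.07 ± 0.24 (adjusted p = 0.00938), a call lost without eye-antennal or leg replicate 1 of the tumour (adjusted p up to 0.0581).

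The other bZIP calls were lost when certain single libraries were left out. slbo, a C/EBP gene, had 0.0708 to 0.247 CPM in CG6272 knockdown, against 10.9 and 9.97 CPM in day 9 and 1.66 and 0.437 CPM in day 11 tumours. Its call was lost without any 1 of the knockdown libraries or replicate 1 of either tumour disc (adjusted p up to 0.131), and in the dissection block (adjusted p = 0.252). CrebA, maf-S and vri, the other members that fell, lost theirs in 4 to 6 of the 8 fits without 1 library. The list count was 4 in the dissection block, 3 without eye-antennal or leg replicate 1 of the tumour, 5 without either eye-antennal library of the knockdown and 4 without its leg replicate 1. Against the other hairpin tumours, where 4.85% of all genes were lower and 4.81% higher, CrebA and Irbp18 fell and REPTOR-BP rose.

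The integrated stress response list, which holds crc and genes that act with it, had 7 falls and no rise among 14 genes, and a median of -0.50. Gadd45, a stress-induced activator of MAP kinase signalling, had 78.2, 103, 44.6 and 49.8 CPM in CG6272 knockdown, against 283, 290.3, 273 and 149.8 CPM in tumours. The genotypes did not overlap, and controls averaged 38.2 CPM. Gadd45 fell by 1.91 ± 0.21 (adjusted p = 3.49e-05), and by 1.17 ± 0.19 relative to the other hairpin tumours (adjusted p = 0.00176). The amino acid transporter gene mnd (-1.86 ± 0.32, adjusted p = 0.00143), the Tribbles pseudokinase gene trbl (-0.86 ± 0.17, adjusted p = 0.00294) and PPP1R15, whose product directs dephosphorylation of eIF2 alpha (-0.58 ± 0.10, adjusted p = 0.000834), fell as well. CG6287 and Nmdmc lost their call in 7 of the 8 fits without 1 library, and 5 to 6 members fell in each of these fits.

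Genes of the DNA damage response fell in number. Of 15 genes in the DNA damage and p53 list 9 fell and 1 rose, with a median of -0.63, and 9 to 10 fell whichever library was left out. p53, the transcription factor of the damage response, had 19.8, 21.7, 25.3 and 20.7 CPM in CG6272 knockdown, against 52.6, 60.9, 53.7 and 46.6 CPM in tumours. All tumour libraries were above all knockdown libraries, and controls averaged 18.3 CPM. p53 fell by 1.29 ± 0.11 (adjusted p = 2.48e-06). Corp, a p53 target that feeds back on p53, had 2.90 to 6.23 CPM in the knockdown, against 17.6 to 34.8 CPM in tumours, and fell by 2.40 ± 0.25 (adjusted p = 1.85e-05).

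Break repair genes are in the same list. Ku80, the partner of Ku70 in end joining, had 46.5, 50.99, 34.7 and 34.99 CPM in CG6272 knockdown, against 83.7, 87.6, 86.6 and 70.95 CPM in tumours. It fell by 0.99 ± 0.10 (adjusted p = 9.28e-06). Irbp (Ku70) fell by 0.99 ± 0.15 (adjusted p = 0.000532), and the ligase gene of the pathway, DNAlig4, by 0.63 ± 0.09 (adjusted p = 0.000296). All 3 genes of the MRN complex, which senses breaks, fell: mre11 by 0.93 ± 0.09, nbs by 0.98 ± 0.11 and rad50 by 0.61 ± 0.12 (adjusted p = 9.86e-06, 4.72e-05 and 0.00419). PolZ1, of the translesion polymerase zeta, fell by 0.78 ± 0.14 (adjusted p = 0.00136). The checkpoint kinase gene lok rose by 0.36 ± 0.09 (adjusted p = 0.019), and its call was lost without replicate 1 of either disc in either genotype (adjusted p up to 0.0971). Set against the other hairpins, 7 of the 15 fell and none rose (median -0.36), among them p53 (-0.70 ± 0.09, adjusted p = 0.000449), mre11 (-0.49 ± 0.08, adjusted p = 0.00167) and Ku80 (-0.48 ± 0.08, adjusted p = 0.00298). From Stat92E hairpin tumours alone, also of day 8, the differences were smaller. They were -0.53 for p53, -0.41 for mre11, -0.20 for Ku80 and -0.37 for Irbp.

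Glutathione S-transferases, which conjugate glutathione to reactive compounds, were lower in many members. Of 35 such genes, 30 passed the filter on low counts, of which 15 fell and 1 rose, with a median of -1.01. GstE1 had 3.03, 4.31, 3.96 and 4.24 CPM in CG6272 knockdown, against 53.8, 45.5, 73.4 and 69.7 CPM in tumours. The knockdown was also below all the other hairpin tumours and all controls, which averaged 21.6 CPM. Stat92E and kay hairpin libraries had 24.4 to 32.9 CPM, and sd and tai libraries 50.3 to 90.02 CPM, a split along the form of file name. GstE1 fell by 3.94 ± 0.13 (adjusted p = 1.5e-10), and by 3.51 ± 0.12 relative to the other hairpins (adjusted p = 2.54e-10). Its difference from Stat92E hairpin tumours alone was -2.83. GstE6 had 17.2, 14.9, 6.93 and 3.98 CPM in the knockdown, against 167, 173, 162 and 150.0 CPM in tumours, and fell by 4.12 ± 0.35 (adjusted p = 3.82e-06). Its knockdown libraries were below all the other hairpin tumours, at 36.03 to 127 CPM, and controls averaged 3.34 CPM.

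GstD5 had no read in 1 knockdown library and 0.193, 0.425 and 0.530 CPM in the others, against 42.7, 26.5, 75.8 and 12.2 CPM in tumours (adjusted p = 0.000247, and 0.32 in the dissection block, where the call was lost). GstE5 fell by 3.56 ± 0.27 (adjusted p = 5.59e-07), GstD3 by 1.48 ± 0.14 (adjusted p = 5.29e-06) and GstD1, a common reporter of oxidative stress, by 1.36 ± 0.23 (adjusted p = 0.00126). GstD1 differed from the other hairpin tumours by -0.17 ± 0.19 (adjusted p = 0.636). GstZ2 rose by 1.46 ± 0.36 (adjusted p = 0.0131), a call lost without eye-antennal replicate 1 of the tumour, or without eye-antennal replicate 1 or leg replicate 2 of the knockdown (adjusted p up to 0.0656), and in the dissection block (adjusted p = 0.374). Between 12 and 15 members fell when 1 library was left out, and 10 in the dissection block. Relative to the other hairpins 9 fell and 1 rose, with a median of -0.27. The family holds close copies, and how the counting split reads between them could move single members.

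**Figure D3:**
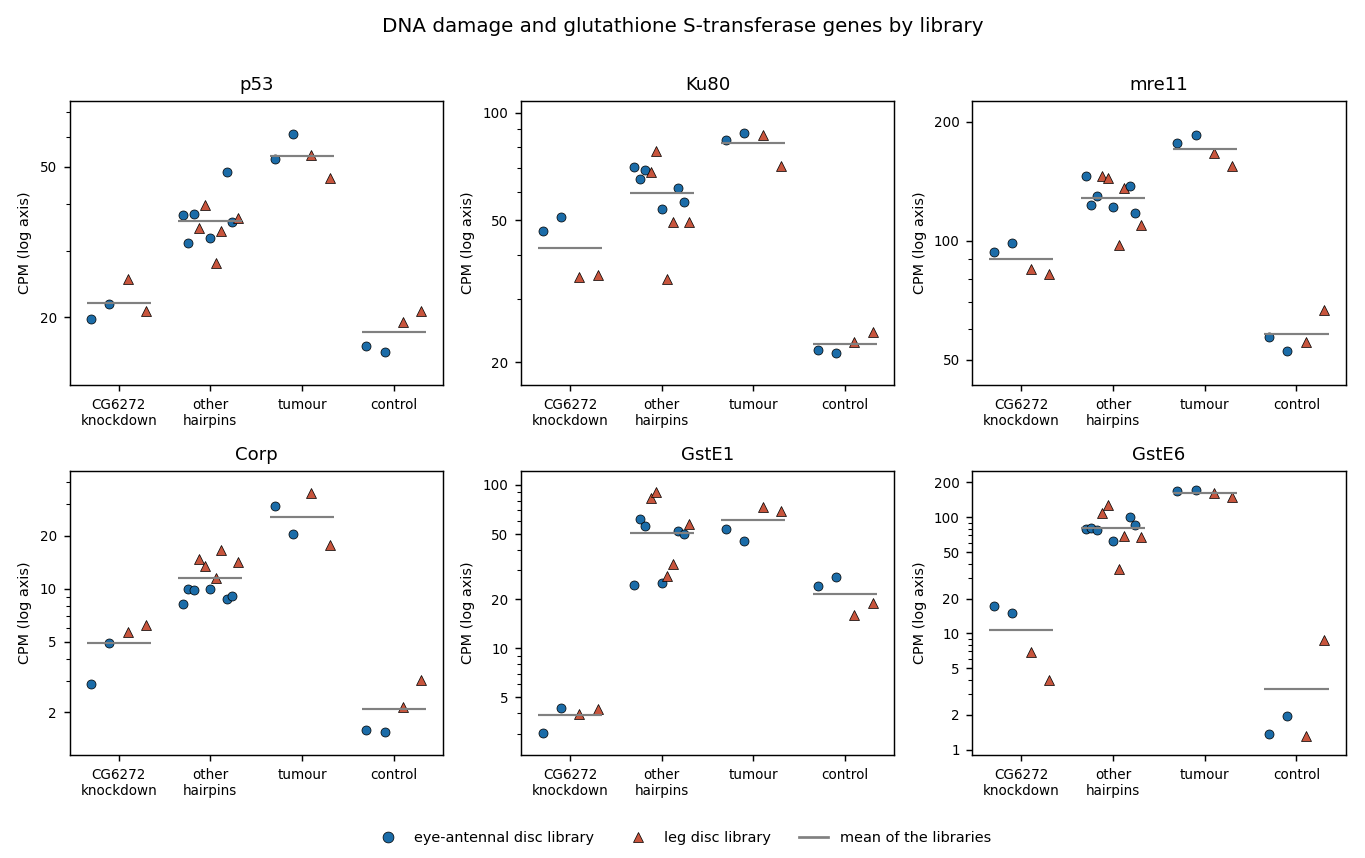
Levels of p53, Ku80, mre11, Corp, GstE1 and GstE6 in CPM on log axes, with 1 point for each library and a grey line at the group mean. The 4 CG6272 knockdown libraries lie below all 4 tumour libraries in every panel, with GstE1 at 3.03 to 4.31 CPM in the knockdown, against 45.5 to 73.4 CPM in tumours.

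Other redox and detoxification genes were mixed. Of 13 antioxidant genes 5 fell and 1 rose (median -0.31). Gclc, the catalytic subunit for glutathione synthesis, had 38.4, 44.4, 44.6 and 43.6 CPM in CG6272 knockdown, against 89.7, 103, 105 and 97.2 CPM in tumours. The genotypes did not overlap, and Gclc fell by 1.21 ± 0.15 (adjusted p = 9.16e-05) and by 0.62 ± 0.13 relative to the other hairpins (adjusted p = 0.00929). Keap1, the inhibitor of the redox factor Cnc, fell by 0.39 ± 0.08 (adjusted p = 0.00498), and the thioredoxin reductase gene Trxr1 by 0.58 ± 0.11 (adjusted p = 0.00294). Of 60 cytochrome P450 genes tested, 9 fell and 4 rose (median 0.02). The rises numbered 1 without leg replicate 1 of either genotype, and 2 without eye-antennal replicate 1 of the tumour or any 1 of the other knockdown libraries. Cyp6d2 had 8.65, 8.50, 3.18 and 2.58 CPM in the knockdown, against 80.8, 88.8, 65.1 and 50.4 CPM in tumours, and fell by 3.81 ± 0.36 (adjusted p = 8.03e-06). Outside the lists, Rdh1, named for retinol dehydrogenase, fell by 3.25 ± 0.18 (adjusted p = 2.02e-08).

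Among 13 apoptosis genes 4 fell and 1 rose (median -0.17), and 2 fell and none rose in the dissection block. Dronc, the initiator caspase, had 98.5, 117, 133 and 141 CPM in CG6272 knockdown, against 241, 191, 271 and 221 CPM in tumours. The genotypes did not overlap, and Dronc fell by 0.92 ± 0.10 (adjusted p = 3.39e-05) and by 0.42 ± 0.09 relative to the other hairpins (adjusted p = 0.00887). Dark, which forms the apoptosome with Dronc, fell by 0.36 ± 0.08 (adjusted p = 0.00636), and the death inducer hid by 0.38 ± 0.08 (adjusted p = 0.00726, and 0.0722 in the dissection block). rpr, another death inducer, fell by 0.57 ± 0.13 (adjusted p = 0.0108), a call lost without eye-antennal replicate 1 of the tumour or leg replicate 2 of the knockdown (adjusted p up to 0.0606), and in the dissection block (adjusted p = 0.0659).

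Of 12 JAK/STAT genes 5 fell and none rose (median -0.15). The ligand gene upd1 had 7.35, 12.2, 52.4 and 48.2 CPM in CG6272 knockdown, against 45.1, 67.7, 95.1 and 96.5 CPM in tumours. In each disc the knockdown was lower, and upd1 fell by 1.73 ± 0.27 (adjusted p = 0.000584). With each disc read alone it differed by -2.53 in eye-antennal discs (adjusted p = 0.00139) and by -0.93 in leg discs (adjusted p = 0.174). The difference between discs was not called (adjusted p = 0.31). The ligand gene upd3 (-1.55 ± 0.29, adjusted p = 0.0026) and the feedback inhibitor gene Socs36E (-1.01 ± 0.13, adjusted p = 0.000129) fell too. In leg discs alone none of the 12 genes was called, with upd3 at -0.81 (adjusted p = 0.273) and Socs36E at -0.65 (adjusted p = 0.0637). upd2 lost its call in 5 of the 8 fits without 1 library (adjusted p up to 0.0959), and the list count was 3 without leg replicate 1 of either genotype.

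Of 20 EGFR and Ras genes 7 fell and none rose (median -0.37). The ligand gene vn had 21.6, 17.96, 18.8 and 19.2 CPM in CG6272 knockdown, against 40.2, 35.8, 61.7 and 36.5 CPM in tumours, without overlap. It fell by 1.15 ± 0.14 (adjusted p = 7.17e-05) and by 0.92 ± 0.12 relative to the other hairpins (adjusted p = 0.000447). The ERK phosphatase gene Mkp3 fell by 0.77 ± 0.10 (adjusted p = 0.000164), and the antagonist sty by 0.89 ± 0.17 (adjusted p = 0.00275). With the other hairpins as reference 8 of the 20 fell and none rose, with a median of -0.31. Ras85D, a member of the list, is not among those 8.

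Of 17 JNK pathway genes and targets 5 fell and none rose (median -0.33). The count was 2 without leg replicate 1 of the tumour, and 3 without eye-antennal replicate 1 of either genotype. The JNK phosphatase and reporter gene puc fell by 0.58 ± 0.18 (adjusted p = 0.0401). That call was kept only without replicate 2 of a tumour disc and lost in the other 6 of the 8 fits (adjusted p up to 0.227) and in the dissection block (adjusted p = 0.0775). Mmp1, a matrix metalloproteinase gene, had 242 to 992 CPM in CG6272 knockdown, against 509 to 1087 CPM in tumours, a difference of -0.40 ± 0.26 (adjusted p = 0.354). Relative to the other hairpin tumours 1 of the 17 JNK genes fell (Ilp8) and 3 rose (cher, Pvf1 and scaf), with a median of -0.06. Among all genes 4.85% were lower and 4.81% higher there. Pvf1 is among the 5 that fell relative to tumours. Of 18 Hippo pathway genes and targets 6 fell and none rose (median -0.23), among them ex (-0.56 ± 0.11, adjusted p = 0.0026), kibra (-0.72 ± 0.14, adjusted p = 0.00273) and the glypican gene dlp (-0.91 ± 0.12, adjusted p = 9.92e-05).

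Among 8 genes of systemic and PVF signals 4 fell and none rose. Ilp8, the relaxin-like peptide by which damaged discs delay metamorphosis, had 21.99, 26.4, 305 and 161 CPM in CG6272 knockdown, against 302, 694, 588 and 774 CPM in tumours. In both discs the knockdown was below the tumours, and its eye-antennal libraries were far below its leg libraries. Ilp8 fell by 2.96 ± 0.56 (adjusted p = 0.00307), and by 1.75 ± 0.48 relative to the other hairpins (adjusted p = 0.0379). With each disc read alone it differed by -4.36 in eye-antennal discs (adjusted p = 0.00732) and by -1.55 in leg discs (adjusted p = 0.274). The difference between discs was not called for Ilp8 (adjusted p = 0.439). ImpL2, a secreted insulin antagonist, had 167, 199.6, 316 and 293 CPM in CG6272 knockdown, against 1749, 718, 2406 and 880.5 CPM in tumours. It fell by 2.59 ± 0.34 (adjusted p = 0.000154). Its day 9 tumour values were well above those of day 11.

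Changes in several lists, metabolic and other, differed with the tumour replicates used as reference. Since day 9 is replicate 1 and day 11 replicate 2, day and dissection cannot be told apart. With day 11 tumours alone as reference the list median was -0.25 for bZIP, -0.23 for EGFR and Ras and -0.16 for JNK genes. It was 0.13 for cell cycle and -0.52 for DNA damage and p53 genes. With both days these medians were -0.40, -0.37, -0.33, 0.27 and -0.63. kay differed by -1.45 from day 9 and by -0.55 from day 11 tumours. Of 11 glycolytic genes 9 fell and none rose, with a median of -1.14. Ldh, lactate dehydrogenase, had 16.6, 8.50, 24.2 and 5.50 CPM in CG6272 knockdown, against 1954 and 3465 CPM in day 9 and 83.1 and 397 CPM in day 11 tumours. All tumour libraries exceeded the knockdown, the day 9 ones by far the most, and Ldh fell by 6.68 ± 1.10 (adjusted p = 0.00118). Pfk, phosphofructokinase, had 115, 124, 90.7 and 109 CPM in the knockdown, against 455 and 641 CPM in day 9 and 132 and 174 CPM in day 11 tumours. Its call (adjusted p = 0.02) was lost without any 1 of the knockdown libraries or replicate 1 of either tumour disc (adjusted p up to 0.133).

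With day 9 tumours alone as reference all 11 glycolytic genes fell, against 11% lower among all genes. With day 11 tumours alone 1 did, Ldh (-3.74, adjusted p = 0.0101), against 3.84% lower among all genes, and the list median was -0.32. The count was 2 without replicate 1 of either tumour disc, and 3 without replicate 1 or 4 without replicate 2 of either knockdown disc. Of the 11, 1 fell relative to the other hairpins, again Ldh (-3.13 ± 0.88, adjusted p = 0.0412).

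Aminoacyl-tRNA synthetases charge tRNAs for translation. Of 17 such genes 11 fell and none rose (median -0.40), and 1 fell relative to day 11 tumours alone. The count was 3 and 5 without leg and eye-antennal replicate 1 of the tumour. It was 6 and 7 without eye-antennal replicates 1 and 2 of the knockdown, and 5 without its leg replicate 2. The DNA damage and p53 list had 8 falls relative to day 11 tumours alone, and the glutathione S-transferases had 11. GstE6 stood at 167 and 162 CPM in day 9 and at 173 and 150.0 CPM in day 11 tumours. Of 78 cytosolic ribosomal protein genes 1 fell and 1 rose (median 0.02), 3 fell without leg replicate 1 of the tumour and 2 rose without its leg replicate 2, and none of 35 proteasome genes was called (median 0.05).

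**Figure D4:**
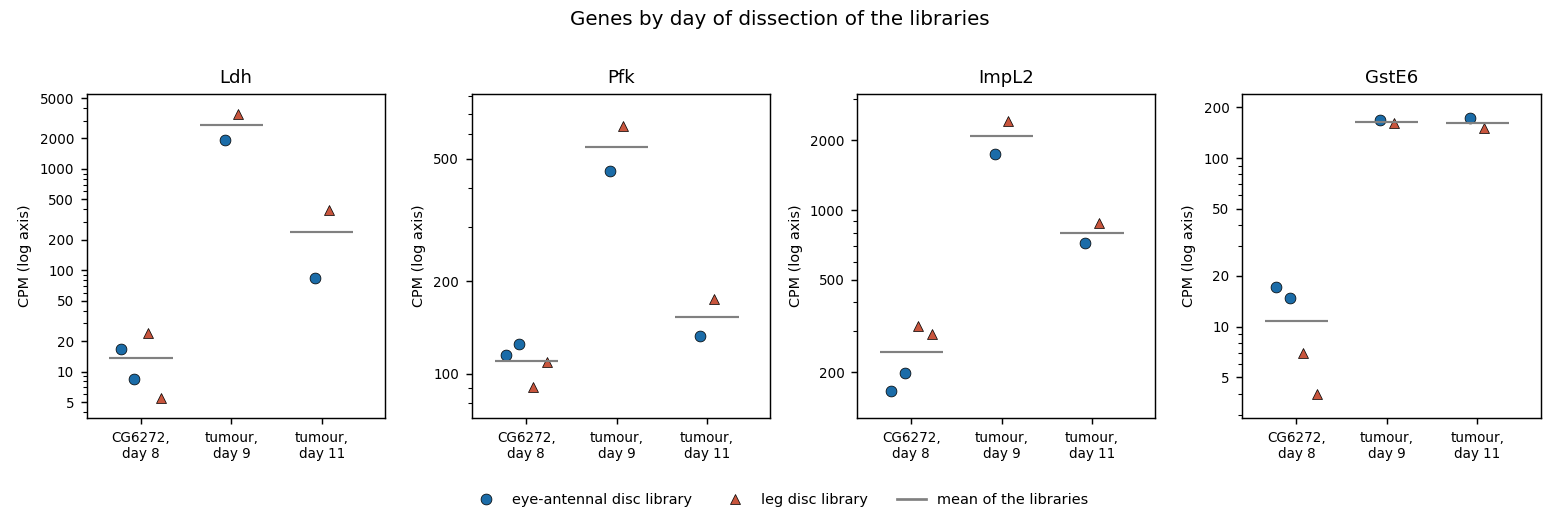
Levels of Ldh, Pfk, ImpL2 and GstE6 in CPM on log axes in CG6272 knockdown libraries of day 8 and tumour libraries of day 9 and day 11, with 1 point for each library and a grey line at the mean. Ldh, Pfk and ImpL2 are higher in day 9 than in day 11 tumours, while GstE6 is at 150.0 to 173 CPM in all 4 tumour libraries.

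The remaining genes of the 15 largest falls had varied patterns. dysf, a bHLH-PAS factor of tracheal fusion and leg joints, had 2.66, 1.74, 3.11 and 5.70 CPM in CG6272 knockdown, against 329, 342, 258 and 138 CPM in tumours. It fell by 6.36 ± 0.27 (adjusted p = 2.51e-09). The other hairpin tumours, at 3.61 to 20.4 CPM, were nearer the knockdown than the tumours, and dysf fell by 1.34 ± 0.23 relative to them (adjusted p = 0.00261). CG9521, of the GMC oxidoreductase family, had at most 0.618 CPM in the knockdown, against 52.3, 1.30, 111 and 19.1 CPM in tumours. CG11893 had 1.87 to 3.25 CPM in the knockdown, against 61.9, 15.4, 83.7 and 25.5 CPM in tumours. Both were highest in day 9 tumours (adjusted p = 0.00241 and 0.000697), and CG9521 lost its call in the dissection block (adjusted p = 0.434). CG32625 fell by 4.03 ± 0.52, CG11380 by 4.92 ± 0.57 and Osi14, of the Osiris family, by 4.21 ± 0.40 (adjusted p = 0.000125, 4.98e-05 and 1.12e-05).

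The call of 2 named genes rested on single libraries. The cuticle gene Cpr64Ac had no read in 3 knockdown libraries and 0.0644 CPM in the other, against 176, 0.288, 74.5 and 0.946 CPM in tumours (adjusted p = 0.01). Its call was lost without replicate 1 of either tumour disc or either eye-antennal library of the knockdown (adjusted p up to 0.12), and in the dissection block (adjusted p = 0.698). CG14565 had no read in 3 knockdown libraries and 5.67 CPM in eye-antennal replicate 2, against 349, 33.1, 2.38 and 0.146 CPM in tumours (adjusted p = 0.0317). That call was lost without replicate 1 of either tumour disc, and without eye-antennal replicate 1 or either leg library of the knockdown (adjusted p up to 0.514), and in the dissection block (adjusted p = 0.674).

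The P450 genes Cyp4p2 and Cyp4p1, which are close copies, differed between the other hairpins. Cyp4p2 had 0.185, 1.03, 1.06 and 2.05 CPM in CG6272 knockdown, against 235, 226, 220.0 and 108 CPM in tumours, and fell by 7.63 ± 0.39 (adjusted p = 1.86e-08). It was low in the Stat92E and kay hairpin libraries, at 0.0702 to 2.26 CPM, and high in the sd and tai libraries, at 75.3 to 193 CPM. The CG6272, Stat92E and kay libraries share the form of file name that the others lack. Relative to tumours, what lies behind that form and the hairpin cannot be told apart, for these genes or any other. Cyp4p1 fell by 4.67 ± 0.32 relative to tumours (adjusted p = 2.75e-07), and its difference from Stat92E hairpin tumours was 1.24 (adjusted p = 0.0979). CG17350 had 0.425 to 3.80 CPM in CG6272 knockdown and 0 to 5.46 CPM in the other hairpin tumours, against 59.02 to 102 CPM in tumours. It fell by 5.47 ± 0.40 relative to tumours (adjusted p = 5.57e-07) and rose by 1.93 ± 0.43 relative to the other hairpin tumours (adjusted p = 0.0136).

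Among the rises, sut2, of the sugar transporter family, had 27.2, 32.00, 24.6 and 25.7 CPM in CG6272 knockdown, against 1.11, 2.96, 0.706 and 0.800 CPM in tumours. The other hairpin tumours held 0.416 to 1.34 CPM and the controls averaged 0.631 CPM. sut2 rose by 4.45 ± 0.38 relative to tumours (adjusted p = 3.04e-06) and by 5.05 ± 0.30 relative to the other hairpins (adjusted p = 2.21e-07). CG7300 had 26.2, 16.7, 12.5 and 7.49 CPM in the knockdown, against 0.343 to 1.01 CPM in tumours, and rose by 4.46 ± 0.85 (adjusted p = 0.00324). The highest other hairpin library, at 16.4 CPM, was eye-antennal replicate 1 of tai. repo, the glial transcription factor gene, had 26.9, 28.97, 34.1 and 33.2 CPM in the knockdown, against 9.94, 9.88, 3.71 and 8.66 CPM in tumours, and rose by 1.96 ± 0.22 (adjusted p = 3.45e-05). It also rose relative to the other hairpins (0.70 ± 0.17, adjusted p = 0.021). Of 7 glial markers 2 rose and 2 fell, 1 fell in the dissection block or without eye-antennal replicate 2, either leg library of the knockdown or replicate 1 of a tumour disc, and their sum was 769.8 to 859 CPM in CG6272 knockdown and 780.2 to 916 CPM in tumours.

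Of the 15 largest rises, 5 bore symbols of muscle genes. Among knockdown libraries these were highest in eye-antennal replicate 1 and lowest in leg replicate 2. The same held for FBgn0086783, which has no symbol here (331, 209, 139 and 17.9 CPM in the knockdown), and for CG9297 and CG5023. Whether these belong with the muscle genes was not tested. Mlc1, a myosin light chain, had 79.98, 44.3, 30.9 and 4.17 CPM in CG6272 knockdown, against 4.28, 7.07, 0.265 and 2.18 CPM in tumours. In each disc both knockdown libraries exceeded both tumour libraries, with leg replicate 2 the lowest of the knockdown. Mlc1 rose by 3.62 ± 0.88 (adjusted p = 0.0144), troponin T (up) by 3.14 ± 0.83, tropomyosin 2 (Tm2) by 3.07 ± 0.84, Mf by 3.11 ± 0.71 and Zasp66 by 3.31 ± 0.78 (adjusted p = 0.0227, 0.0262, 0.0105 and 0.0116). All 5 lost their call without eye-antennal or leg replicate 1 of the tumour, and without leg replicate 1 of the knockdown. up and Tm2 lost it also without eye-antennal replicate 1 of the knockdown, and Tm2 without eye-antennal replicate 2 of the tumour (adjusted p up to 0.151). In the dissection block all 5 calls were lost (adjusted p = 0.236 for Mf to 0.484 for Mlc1).

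Cuticle genes went both ways. The larval cuticle gene Lcp4 had 14.1, 9.01, 23.1 and 5.50 CPM in CG6272 knockdown, against no read in 2 tumour libraries and 0.144 and 0.146 CPM in the other 2 (adjusted p = 0.0064, and 0.702 in the dissection block, where the call was lost). Other hairpin libraries reached 181 CPM. Of 50 cuticle protein genes tested, of 123 in the table, 7 rose and 3 fell, with a median of -0.20, and 1 rose and none fell in the dissection block. The rises numbered 2 without replicate 1 of a knockdown disc, 3 without replicate 1 of a tumour disc or eye-antennal replicate 2 of the tumour, and 4 without its leg replicate 2. The falls numbered 0 and 5 without leg replicates 1 and 2 of the tumour, and 1 without replicate 1 of a knockdown disc. The other rises named were Lcp1, spok (a P450 of ecdysone synthesis), CG9297, CG15353, CG5023, CG43693 and FBgn0086783, at 2.96 to 4.41, and each lost its call in 3 to 7 of the 8 fits without 1 library and in the dissection block (adjusted p = 0.113 for CG43693 to 0.655 for Lcp1).

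Sums of markers of other tissues were higher in some knockdown libraries than in tumours, and their order over the knockdown libraries differed from list to list. Mlc1 and up are both muscle markers and named rises, so the muscle sum is no separate measure. The 6 muscle markers measured summed to 1541, 1080.0, 753 and 266 CPM in CG6272 knockdown, 206 to 2603 CPM in the other hairpin tumours, 238 to 310.5 CPM in tumours and 224 to 321 CPM in controls. Of these 6 markers, 4 rose, Mlc1 and up among them, 1 without leg replicate 1 of the knockdown or replicate 1 of a tumour disc, and 2 without eye-antennal replicate 1 of the knockdown. None of the 6 was called in the dissection block (adjusted p = 0.484 for Mlc1 and 0.308 for up). The 8 hemocyte markers summed to 354 to 683 CPM in CG6272 knockdown, 53.6 to 449.5 CPM in the other hairpin tumours, 175 to 317 CPM in tumours and 74.03 to 219.9 CPM in controls. NimC1 (2.69 ± 0.53, adjusted p = 0.00344) and PPO2 (1.88 ± 0.55, adjusted p = 0.0342) rose, and PPO2 lost its call in all fits but those without replicate 2 of a knockdown disc (adjusted p up to 0.12). Neither was called in the dissection block (adjusted p = 0.0543 for NimC1 and 0.093 for PPO2). The 7 fat body markers summed to 168 to 2964 CPM in CG6272 knockdown, 35.1 to 11842 CPM in the other hairpin tumours, 37.5 to 281 CPM in tumours and 456 to 8479.8 CPM in controls, and none was called. Of 6 markers of the myoblasts that underlie the disc epithelium 3 rose (htl, Mef2 and stumps), 2 in the dissection block and 1 without leg replicate 1 of the tumour, and their sums were 178 to 304 CPM in CG6272 knockdown and 133 to 179 CPM in tumours. None of the markers counted in the muscle, hemocyte and fat body lists was at 0 in any of the 8 libraries. The part of such tissue in the muscle, cuticle and hemocyte results was not tested.

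**Figure D5:**
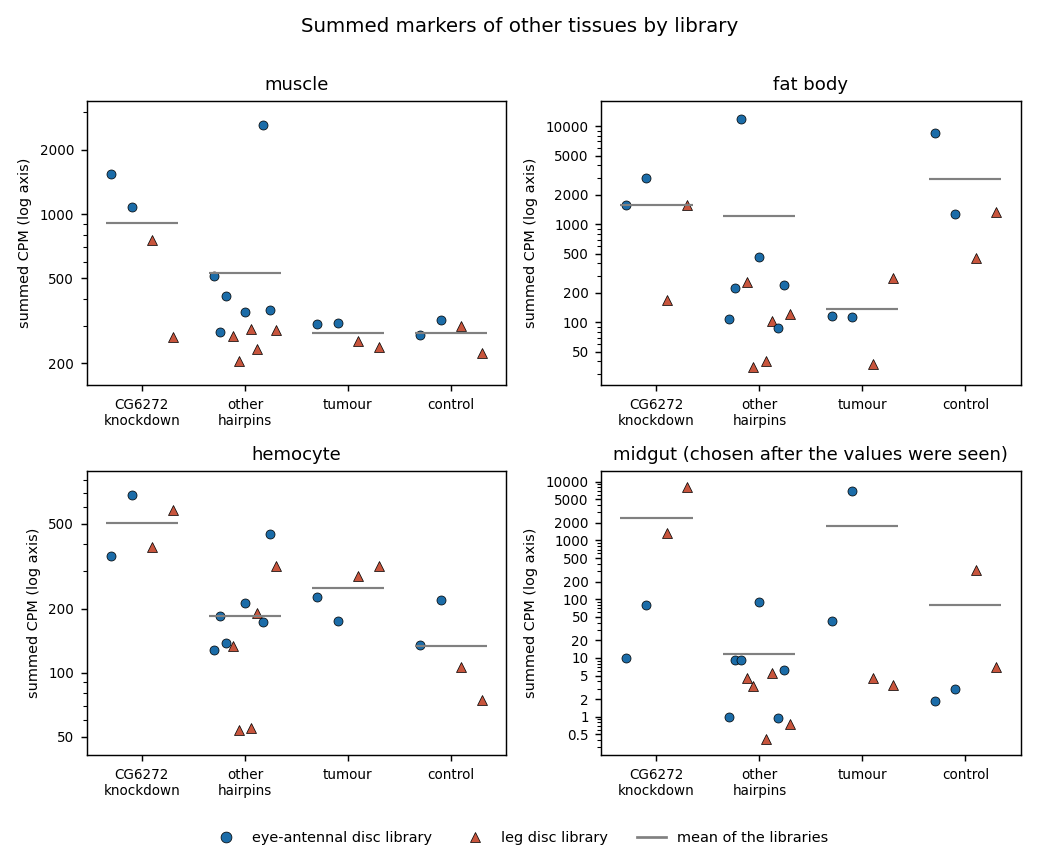
Summed CPM of muscle, fat body, hemocyte and midgut markers in each library, on log axes, with a grey line at the group mean. Muscle sums are 266 to 1541 CPM in CG6272 knockdown, against 238 to 310.5 CPM in tumours, and midgut sums are high in both leg libraries of the knockdown (1335 and 8229 CPM) and eye-antennal replicate 2 of the tumour (6889 CPM).

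Patterning and growth genes differed with the reference. Of 23 eye and retina genes 4 rose and none fell (median 0.46), and 2 rose in the dissection block, without leg replicate 2 of the tumour or without eye-antennal replicate 1 of the knockdown. dac, a retinal determination gene, had 295, 126, 223 and 223 CPM in CG6272 knockdown, against 29.99, 65.2, 87.4 and 140.4 CPM in tumours, and rose by 1.55 ± 0.26 (adjusted p = 0.0011). The photoreceptor kinase gene sev rose by 1.66 ± 0.28 (adjusted p = 0.00116). Against the other hairpin tumours none of the 23 rose and 2 fell, with a median of -0.36, and dac differed by -0.18 ± 0.21 (adjusted p = 0.643). Of 26 cell cycle and replication genes 7 rose and none fell (median 0.27), among them Mcm5, of the replicative helicase (0.62 ± 0.14, adjusted p = 0.00723). That count was 4 in the dissection block, 1 without replicate 1 of either disc in either genotype, 2 without leg replicate 2 of the knockdown and 16 without leg replicate 2 of the tumour. None of the 26 rose and 1 fell relative to the other hairpins.

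Of 21 ecdysone pathway genes 3 fell and none rose (median -0.29) relative to tumours, 5 fell without leg replicate 2 of the tumour, 1 fell in the dissection block, and 11 fell and none rose (median -0.48) relative to the other hairpin tumours. Sox14, a factor of metamorphosis, had 42.4, 44.7, 53.4 and 65.1 CPM in CG6272 knockdown, against 86.6, 85.1, 123 and 82.9 CPM in tumours. It fell by 0.89 ± 0.14 relative to tumours (adjusted p = 0.000787) and by 0.48 ± 0.12 relative to the other hairpins (adjusted p = 0.0261). Cyp18a1, an ecdysone-degrading P450, fell by 2.18 ± 0.44 and by 1.73 ± 0.39 in the same comparisons (adjusted p = 0.00451 and 0.0148), and lost its call relative to tumours in the dissection block (adjusted p = 0.0661). Of 12 matrix genes none was called by edgeR against tumours, 3 rose without eye-antennal replicate 1 of the knockdown, and 5 rose and 1 fell against the other hairpins.

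Of 19 leg patterning genes 5 fell and 1 rose relative to tumours, 3 fell in the dissection block, without replicate 1 of a tumour disc or without either leg library of the knockdown, and 9 fell and none rose relative to the other hairpins. Of 17 Notch genes 1 fell and 1 rose relative to tumours, none in the dissection block, and 6 fell and none rose relative to the other hairpins. Ser, a Notch ligand gene, fell in both, by 0.41 ± 0.11 and by 0.51 ± 0.10 (adjusted p = 0.023 and 0.0049). Its call relative to tumours was lost in the dissection block (adjusted p = 0.111), and without eye-antennal replicate 2 or leg replicate 1 of the tumour or replicate 2 of either knockdown disc (adjusted p up to 0.116). Of 24 genes of Toll, Imd and antimicrobial defence 1 fell, cact, the inhibitor of the Toll pathway (-0.35 ± 0.09, adjusted p = 0.0185), and 1 rose, PGRP-LC. The call of cact was lost without eye-antennal replicate 2 or leg replicate 1 of the tumour, and without eye-antennal replicate 2 or either leg library of the knockdown (adjusted p up to 0.0744). PGRP-LC lost its call without replicate 1 of either tumour disc or replicate 2 of either knockdown disc, and in the dissection block (adjusted p = 0.127). Of 70 mitochondrial ribosomal protein genes 1 fell, and none without replicate 1 of either tumour disc. Of 65 nuclear genes of oxidative phosphorylation 1 fell and 1 rose, while 6 rose without leg replicate 2 of the tumour and 2 fell without leg replicate 1 of the knockdown. edgeR called none of 11 genes of ER stress and folding, 1 without eye-antennal and 2 without leg replicate 2 of the tumour.

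Read alone, the eye-antennal discs gave 693 calls (7.06%), 473 lower (4.82%) and 220 higher, and the leg discs 418 (4.26%), 316 lower (3.22%) and 102 higher. With 2 libraries against 2 these counts moved with single libraries. Eye-antennal calls were 200 and 308 without replicates 1 and 2 of the knockdown, and 284 and 438 without those of the tumour. Leg calls were 219 and 126 without replicates 1 and 2 of the knockdown, and 102 and 704 without those of the tumour. Irbp18 differed by -2.48 in eye-antennal discs (adjusted p = 0.000371) and by -2.72 in leg discs (adjusted p = 0.000214). The DNA damage and p53 list had 9 falls in eye-antennal and 8 in leg discs, and the glutathione S-transferases 11 and 10. Falls were also even in the bZIP list (2 and 3) and the cytochrome P450s (7 and 8). Other lists had more calls in eye-antennal discs, where more genes were called in all. JAK/STAT had 4 falls there and 0 in leg discs, JNK 3 and 0, and aminoacyl-tRNA synthetases 3 and 0. Systemic and PVF signals had 4 and 1 falls, and eye and retina genes 7 and 1 rises. Medians in eye-antennal and leg discs were -0.11 and -0.27 for JAK/STAT and -0.38 and -0.45 for aminoacyl-tRNA synthetases, thus lower in the leg. They were -0.26 and -0.15 for JNK, -0.78 and -0.48 for systemic and PVF signals, and 1.09 and 0.11 for eye and retina genes. Counts of calls in each disc are no test of a difference between discs.

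The difference of the knockdown effect between discs was tested for every gene, and edgeR called 0 of 9814 (0%), with 747 at an unadjusted p under 0.05. limma-voom also called 0, limma-voom with the dissection as a block 46, and DESeq2 150. Without leg replicate 1 of the knockdown edgeR called 64, and without eye-antennal replicate 1 of the tumour 51. geko had the smallest p among genes whose effect was higher in the leg. It had 15.9 and 19.5 CPM in eye-antennal discs of CG6272 knockdown, against 119 and 124 CPM in tumours. In leg discs it had 20.4 and 20.3 CPM in the knockdown, against 18.4 and 17.97 CPM in tumours. The homeobox gene B-H2 had the opposite order, with 52.7 and 42.04 CPM in eye-antennal discs of the knockdown, against 14.2 and 25.1 CPM in tumours. Its leg discs had 4.39 and 3.78 CPM in the knockdown, against 7.24 and 9.46 CPM in tumours. Neither difference passed the threshold (adjusted p = 0.058 and 0.058).

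The knockdown was also compared with the 11 other hairpin tumours, and 476 genes were lower and 472 higher. These calls share the CG6272 libraries with the comparison against tumours and are no repeat of it. As a description without a test, 233 genes (2.37%) were lower in the CG6272 libraries than in every tumour and other hairpin library of the same disc, in both discs, and 85 (0.866%) were higher. Of the low genes, 8 were among the 30 glutathione S-transferases, 5 among 20 EGFR and Ras genes, and 4 each among 15 DNA damage, 11 glycolytic and 14 integrated stress response genes. Many lists held no low gene, among them JNK, JAK/STAT, Notch, ribosomal proteins, aminoacyl-tRNA synthetases, cell cycle, eye and retina, and muscle. With 2.37% of all genes low, absence from lists of these sizes is not read as a result.

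The low genes farthest from the other hairpins, named after their values were seen, began with GstD5, GstE1, Ldh, GstE6 and Cyp6d2. CG3397 followed, with 0.778 to 2.64 CPM in CG6272 knockdown, 3.51 to 17.5 CPM in the other hairpin tumours and 13.9 to 25.2 CPM in tumours. CG12224 had 0.795 to 2.25 CPM in the knockdown, 3.02 to 12.9 CPM in the other hairpins and 9.82 to 18.1 CPM in tumours. Of the high genes sut2 and CG7300 were farthest, followed by the P450 gene Cyp6a13, with 5.87, 6.57, 12.9 and 15.04 CPM in the knockdown, against 2.40, 1.66, 9.18 and 6.26 CPM in tumours. The call of Cyp6a13 relative to tumours (adjusted p = 0.0292) was lost whichever of the 8 libraries was left out, up to an adjusted p of 0.0834, while it rose by 2.06 ± 0.28 relative to the other hairpins (adjusted p = 0.000472). Timp, an inhibitor of matrix metalloproteinases, had 22.2, 40.2, 24.2 and 30.3 CPM in the knockdown, 4.14 to 20.8 CPM in the other hairpins and 20.2, 14.9, 23.7 and 22.1 CPM in tumours.

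Last, the knockdown was set against genes that changed in wing tumours. Wing libraries are not among the 8 compared, though wing tumours are of the same genotype and may come from the same larvae as the other tumour discs. Of 956 genes raised at least 2-fold in wing tumours over wing controls, 336 fell (35.1%) and 38 rose (3.97%) in CG6272 knockdown relative to tumours, with a median of -0.48. Among all genes these shares were 8.92% and 5.33%. Of 266 genes lowered in wing tumours, 41 rose (15.4%) and 14 fell (5.26%), with a median of 0.13. The share that rose was 10.2% without leg replicate 1 of the tumour. With 1 library left out, the shares against the direction of the wing were 2.14% to 3.19% of the raised and 2.23% to 4.29% of the lowered genes. With day 11 tumours alone as reference 18.3% of the raised genes fell and 7.81% of the lowered genes rose. Against the other hairpin tumours 121 of the 956 fell (12.7%) and 99 rose (10.4%), with a median of -0.01, and of the 266, 57 fell (21.4%) and 9 rose (3.38%). Among all genes 4.85% were lower and 4.81% higher against that reference. Each reference has its own share over all genes, so wing shares under different references are not compared, here or in the closing section.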

How the data were processed

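Read counts per gene are the authors' own and were taken as deposited. Per the submitters' processing notes, the tools were TopHat2 and HTSeq and the build dm3; versions, counting mode and strand setting were not given in the sources used here. The table has 15348 genes and 5 summary lines for 27 libraries in 15 groups. A gene was tested if 2 or more libraries reached 1 CPM (9814 genes). After TMM scaling, edgeR's quasi-likelihood test was fitted to all libraries with a mean for each group (12 residual degrees of freedom, common biological coefficient of variation 0.283). P-values were adjusted by Benjamini-Hochberg over all genes tested, with a threshold of 0.05. The standard error is the size of the log2 difference over the root of its F. The code was tested on simulated counts with known changes.

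The comparison, the 45 lists (1051 members in the table) and the named genes were chosen with earlier results of these data known. Named genes are the hairpin targets; the 15 largest rises and 15 largest falls past the threshold, with a mean of 10 CPM or more in the higher genotype and both libraries of each disc on 1 side; the 5 smallest p-values for a disc difference in each direction; and list members. Examples from the lists were chosen after their values were seen.

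Other settings tried were size factors and the test of DESeq2, no count filter or one at 5 CPM, only the 8 libraries, a block for replicate number, limma-voom with and without a dissection block, summed discs, tumours of 1 day, other hairpins as reference, and leaving out each library. Versions were R 4.3.3, edgeR 4.0.16, limma 3.58.1 and DESeq2 1.42.0. Sequences were not used here.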

Additional observations from a re-analysis of the deposited data

Results flagged for a closer look

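For 10 genes both CG6272 knockdown libraries lay on one side of both tumour libraries in leg discs and on the other side in eye-antennal discs. The effect in a single disc did not pass the threshold in the leg for geko, Nplp1, mex1 and Lim1, nor in the eye-antennal disc for olf413 and obst-B (adjusted p = 0.0562 for mex1 to 0.822 for geko). The leg effect minus the eye-antennal effect, on the log2 scale, was 2.94 for geko, 2.43 for the neuropeptide-like precursor gene Nplp1, 11.7 for the midgut gene mex1, 10.9 for CG15043 and 1.36 for the homeobox gene Lim1. It was -2.30 for the homeobox gene B-H2, -1.22 for olf413, -2.22 for the peptidase gene Ance, -1.19 for obst-B and -1.20 for the serpin gene Spn77Ba. None passed edgeR's test of that difference (adjusted p = 0.058 for geko and 0.0588 for Spn77Ba). CG15043 stood at 162 CPM in leg replicate 2 of the knockdown and 132 CPM in eye-antennal replicate 2 of the tumour, where the midgut sum was 8229 and 6889 CPM, and at 27.1 CPM in leg replicate 1 of the knockdown, where that sum was 1335 CPM. The part of midgut tissue in these values was not tested.

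Table entries for reads with several alignments, which are outside the gene counts, averaged 29.02% in CG6272 knockdown, 53.3% in the other hairpin tumours, 66.4% in tumours and 18.2% in controls. The knockdown libraries lay above every control and below every other tumour library.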

How the results depend on the processing

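The fall of Irbp18 passed the threshold in every fit run, from -2.92 with day 9 tumours as reference to -1.52 against Stat92E hairpin tumours, and from -2.77 to -2.37 when single libraries were left out. The count of calls was 1398, and 698 or 771 with the 8 libraries alone (group means or additive terms), 721 with the dissection as a block in limma-voom, 420 with the discs of a dissection summed, 515 with day 11 tumours, 480 against Stat92E hairpins, and 740 to 1671 without 1 library. Eye-antennal calls (693) were 1108 with DESeq2, 238 with the 8 libraries, 317 with day 11 tumours, 20 against Stat92E and 83 against the other hairpins, 408 without leg replicate 2 of the knockdown and eye-antennal replicate 2 of the tumour (the 2 highest midgut sums), and 200 to 782 without 1 library. Leg calls (418) were 799 with DESeq2, 130 with the 8 libraries, 795 with day 9 and 103 with day 11 tumours, 133 without those 2 libraries, and 102 to 704 without 1 library. Disc differences (0) were 8 without a count filter, 3 at 5 CPM or with day 11 tumours, 150 with DESeq2, 1 with the 8 libraries, 46 with the dissection block, and 0 to 64 without 1 library. Causes of these shifts were not tested. Fits with fewer libraries also have fewer degrees of freedom, and the part of this in the shifts was not tested either. Leaving out those 2 libraries, which keeps the knockdown's leg replicate 1 with its midgut sum of 1335 CPM, and crossing the replicate numbers, were chosen after seeing the data.

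Replicate numbers did not pair the samples (correlations of deviations -0.08 in eye-antennal and -0.16 in leg discs): with the replicate block 1355, 676, 406 and 1 genes were called, and with the tumour numbers crossed 1343, 672, 397 and 10.

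The share of wing-raised genes that fell (35.1%) was 38.8% at 5 CPM, 7.85% against Stat92E, 12.7% against the other hairpins, 39.8% with day 9 and 18.3% with day 11 tumours, 29.0% without the same 2 libraries, and 23.7% to 39.5% without 1 library. The share of wing-lowered genes that rose (15.4%) was 0.752%, 3.38%, 7.81% and 11.2% in the Stat92E, other hairpin, day 11 and 2-library settings, 10.2% for a 4-fold wing set, and 10.2% to 17.5% without 1 library.

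Signs turned for genes as follows. Against Stat92E hairpins the values were -0.11 for sd, -0.17 for tai, 2.88 for Cyp4p2, 1.19 for CG17350, 1.24 for Cyp4p1, 0.22 for Ets21C, 0.73 for Mmp1, 0.30 for Socs36E, 0.038 for rpr, 0.43 for en, 0.28 for inv, -0.22 for ci, -0.46 for dac, -0.14 for sev, -0.86 for ato, -0.21 for Mcm7 and 0.042 for kibra. Against all other hairpins they were -0.022 for scrib, -0.065 for tai, 1.93 for CG17350, 0.28 for Mmp1, -0.069 for ci, -0.18 for dac, -0.27 for ato and -0.028 for Mcm7. tai was -0.0080 with summed discs, -0.093 with day 11 tumours and -0.074 to 0.11 without 1 library. Disc differences turned for Lim1 (-0.28), olf413 (0.17) and Spn77Ba (0.073) against Stat92E, and for Nplp1 (-0.32), Lim1 (-0.17), olf413 (0.035) and Spn77Ba (0.014) against the other hairpins. Genes near 1 CPM rest on about 12 to 15 reads per library, and small changes there were not detectable at this depth.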
